A study of Homo sapiens with 18 samples.

Results

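At 24 h, NCI-H2347 cells given 50 µM pioglitazone had higher RNA levels than vehicle cells for 16 of 17 cholesterol synthesis genes, 16 of 32 PPAR targets, 14 of 25 hypoxia-inducible genes and 15 of 27 NRF2 targets. RNA levels were lower for 38 of 50 DNA replication genes, 23 of 32 genes of recombination and Fanconi repair, and 12 of 26 genes of nucleotide synthesis. Over all genes tested, 10.5% rose and 12.8% fell. The gene lists, here and below, were chosen with earlier results of these data known. Their counts describe these data and are no independent test of a pathway. The comparison used 6 of the 18 arrays of the series, 3 of cells exposed to pioglitazone for 24 h and 3 of cells exposed to the DMSO vehicle for the same time, taken by their group labels, and covered all 11680 genes that passed the detection filter. NCI-H2347 is an established human lung adenocarcinoma line, and every culture was grown in RPMI with 5% FBS and plated 24 h before the medium was changed to one holding the drug or DMSO. The remaining 12 arrays hold both treatments at 12 h and at 48 h. They also entered the normalisation, the detection filter and the estimate of spread behind each standard error and p-value. The series is 1 cell line at 1 dose, and nothing in the labels says that replicates came from separate cultures, so p-values cover the variation of these samples alone, and it may be technical in origin.

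Pioglitazone is a thiazolidinedione, a drug that binds the nuclear receptor PPARγ. PPAR receptors pair with RXR on DNA, and ligand binding turns on genes of fatty acid uptake, storage and oxidation. Cholesterol synthesis is driven by SREBP transcription factors held in check by sterols, hypoxia-inducible genes by HIF, oxidant defence genes by NRF2, and the genes that copy DNA by E2F factors at the entry to S phase. The labels do not state the purpose of the experiment beyond treatment and time.

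Signals are log2 values of background-corrected and quantile-normalised bead intensities. A gene is said to have risen or fallen where its adjusted p, from limma over all genes, was under 0.05. The standard error of a difference had a median of 0.15, and replicates varied by a median SD of 0.14 in pioglitazone cells and 0.12 in vehicle cells. The 6 arrays detected 17464 to 18500 of 47323 probes. Log2 signals correlated at 0.989 to 0.995 across genes within a group and at 0.976 to 0.983 between the groups.

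The labelled cell type was checked against markers. Of 10 epithelial markers 9 were detected on all 6 arrays, and the summed linear signal of the 10 was 53968 to 56802 with pioglitazone and 47923 to 52200 with vehicle. Of the markers of other cells on the array, 8 of 10 fibroblast, 8 of 10 endothelial and 7 of 10 adipocyte genes were detected on none of the 6 arrays, PDGFRB, PECAM1, ADIPOQ, PLIN1 and FABP4 among them. Of 11 leukocyte markers, PTPRC, CD3E, MS4A1 and LYZ were detected on none, while CSF1R, a macrophage receptor, rose by 0.96. The summed linear signal of the detected fibroblast genes, COL1A1 and COL1A2, was 447 to 544 with pioglitazone and 600 to 651 with vehicle. That of the detected endothelial genes, VWF and ESAM, was 340 to 404 with pioglitazone and 500 to 545 with vehicle, but the 2 genes had opposite calls: VWF rose by 0.52 and ESAM fell by 0.67. Of leukocyte markers 6 passed the filter and summed to 2363 to 2449 with pioglitazone and 2061 to 2082 with vehicle, and LEP and LIPE, of the adipocyte markers, to 209 to 295 with pioglitazone and 112 to 162 with vehicle. The part of these genes in the results was not tested.

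Over all genes, 2725 of 11680 (23.3%) differed between the treatments: 1226 (10.5%) rose and 1499 (12.8%) fell, while 8955 did not pass the test. The median difference over all genes was −0.02. Most calls were small. At 1.5-fold or more there were 1252 (10.7%), and at 2-fold or more 232 (1.99%), of which 136 rose (1.16%) and 96 fell (0.822%). The groups did not overlap in 5275 genes (45.2%), 2347 higher with pioglitazone (20.1%) and 2928 lower (25.1%). Where arrays were instead centred on the median signal of every probe, detected or not, with no quantile normalisation, 448 genes were called, 112 higher and 336 lower, and the median of all genes was −0.20. That setting was chosen after seeing the data, and counts under it are given below as counts after all-probe centring.

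**Figure D1:**
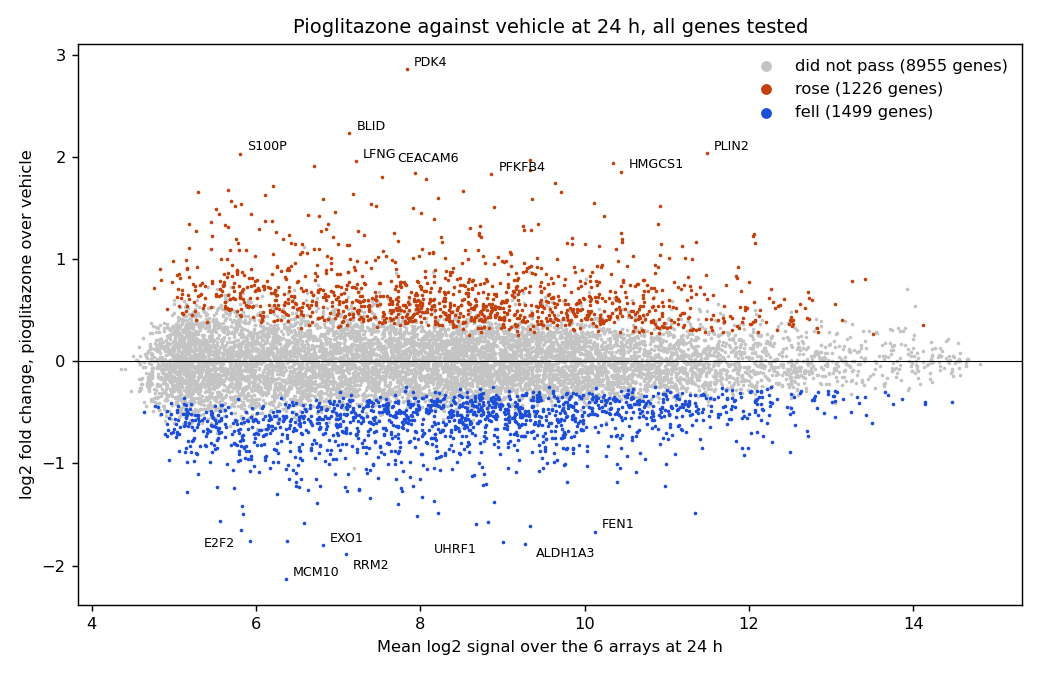
Log2 difference of pioglitazone minus vehicle at 24 h (vertical axis) against the mean log2 signal (horizontal axis) for 11680 genes, with genes that rose or fell coloured and the leading genes named. PDK4 stands highest at 2.85 and MCM10 lowest at −2.13.

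Among PPAR targets, 16 of 32 tested genes rose and 2 fell, with a median difference of 0.47 against −0.02 over all genes. After all-probe centring 5 rose and none fell. PDK4, a kinase that shuts down pyruvate dehydrogenase and so spares glucose, had the largest rise of any gene. Its signal was 9.40, 9.12 and 9.27 with pioglitazone, against 6.46, 6.22 and 6.56 with vehicle, a 7.23-fold difference (log2 2.85 ± 0.21 SE, adjusted p = 1.32e-07). PLIN2, the coat protein of lipid droplets, was at 12.57, 12.40 and 12.55 with pioglitazone and at 10.57, 10.33 and 10.52 with vehicle, 4.10-fold higher (2.04 ± 0.10, adjusted p = 2.46e-09). In both genes every pioglitazone array lay well above every vehicle array. FABP3, a cytosolic fatty acid carrier, was detected on all 3 pioglitazone arrays at 6.23, 6.73 and 6.50 and on no vehicle array, where it read 4.93, 4.73 and 5.09, which makes it at least 2.44-fold higher. Catalase (CAT), which breaks down hydrogen peroxide in peroxisomes, was at 11.62, 11.54 and 11.53 with pioglitazone and 10.25, 10.06 and 10.36 with vehicle, a rise of 1.34. RETSAT, a retinol saturase induced by PPARγ in fat cells, rose by 1.16.

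Not all PPAR targets rose. ANGPTL4, a secreted inhibitor of lipoprotein lipase, read 5.99, 6.35 and 6.50 with pioglitazone and 5.83, 5.84 and 5.99 with vehicle, a difference of 0.39 (adjusted p = 0.251). The lowest pioglitazone array and the highest vehicle array had the same value of ANGPTL4. FABP4, the fat cell lipid carrier, did not pass the detection filter. TXNIP fell by 0.45 and SLC27A2, an acyl-CoA synthetase, by 0.67. CPT1A, the gate of mitochondrial fatty acid import, rose by 0.99 on the probe used, with 8.02, 7.90 and 7.90 with pioglitazone and 6.97, 6.86 and 7.02 with vehicle. Its other probe, detected on 1 pioglitazone and 2 vehicle arrays, gave −0.22.

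The receptors themselves moved less. PPARG read 10.93, 10.80 and 11.06 with pioglitazone and 11.26, 11.26 and 11.29 with vehicle, lower by 0.34 on the log2 scale (difference −0.34, adjusted p = 0.0154). PPARD read 8.18, 8.25 and 8.16 with pioglitazone and 7.47, 7.53 and 7.32 with vehicle and rose by 0.75 (adjusted p = 0.0274), but a second probe, detected on all 6 arrays, gave 0.35. PPARA (−0.38, adjusted p = 0.234) and RXRA (−0.22, adjusted p = 0.0579) did not pass. Of 17 receptors and coregulators, 2 rose (11.8%) and 3 fell (17.6%), against 10.5% and 12.8% of all genes. Among those that fell was the coactivator PPARGC1B (−0.83), whose probe was detected on no pioglitazone array and on 3 vehicle arrays.

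Genes of fatty acid breakdown rose in part. Of 29 peroxisomal genes 9 rose and 2 fell (median 0.24), including the dienoyl-CoA isomerase ECH1 (1.00), the thiolase ACAA1 (0.93) and the phytanic acid hydroxylase PHYH (0.85). Of 23 genes of mitochondrial oxidation, 8 rose and 2 fell (median 0.25, or 0.15 with no background correction), with ETFDH, which passes electrons from the acyl-CoA dehydrogenases to ubiquinone, at 0.76 and the thiolase ACAA2 at 0.67. All-probe centring left 2 peroxisomal and no mitochondrial rises. Of 12 genes of triglyceride synthesis, 3 rose and 3 fell. LPIN1, a phosphatidate phosphatase, rose to 12.12, 11.76 and 11.93 with pioglitazone, against 10.84, 10.71 and 10.76 with vehicle. AGPAT5 fell by 0.94. Of 15 lipid droplet genes 2 rose, PLIN2 among them, and 2 fell (13.3% each way, shares near the 10.5% and 12.8% of all genes).

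The cholesterol pathway rose almost as a whole: 16 of 17 tested enzymes rose and none fell, with a median of 1.20, and 13 rose 2-fold or more. PMVK, a mevalonate pathway kinase, was the exception at −0.00. After all-probe centring 9 rose, with a median of 1.01. HMGCS1, which makes HMG-CoA, read 11.46, 11.38 and 11.28 with pioglitazone and 9.75, 9.36 and 9.44 with vehicle, a 3.62-fold rise (1.86 ± 0.13 SE, adjusted p = 6.25e-08). MVD, the mevalonate diphosphate decarboxylase, read 8.08, 8.78 and 8.45 with pioglitazone and 6.47, 6.63 and 6.81 with vehicle (1.80), and IDI1, the isopentenyl diphosphate isomerase, 10.52, 10.48 and 10.54 with pioglitazone and 9.0, 8.53 and 8.77 with vehicle (1.75). No vehicle array reached a pioglitazone array in any of these genes. The mean signal over the 17 genes was 10.32, 10.48 and 10.35 on the pioglitazone arrays and 9.29, 9.09 and 9.16 on the vehicle arrays. DHCR7, the last step to cholesterol, rose by 1.54.

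INSIG1, which retains SREBP in the endoplasmic reticulum and is itself an SREBP target, rose to 11.47, 11.15 and 11.33 with pioglitazone, against 9.67, 9.07 and 9.38 with vehicle (1.94, adjusted p = 6.68e-08). Of 14 genes of sterol sensing and uptake, 4 rose, with SREBF1, the gene of SREBP1, at 0.64, and the median was 0.08. In fatty acid synthesis 11 of 23 genes rose and 1 fell (median 0.35). They included the desaturases FADS2 (1.5) and SCD (0.80), the acetyl-CoA synthetase ACSS2 (1.17), the citrate carrier SLC25A1 (1.13) and the synthase FASN (0.81). SCD was picked outside the rule for naming genes. ELOVL6, an elongase, fell by 0.43. After all-probe centring 3 of the 23 rose. Among LXR targets, LPCAT3, which loads polyunsaturated chains into phospholipids, rose by 1.05, ABCA1, a cholesterol exporter, rose by 0.75 and ABCG1, another cholesterol exporter, fell by 1.02.

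Promoters of the cholesterol genes are shown because they share a short motif and rose together. The letters CCAAT, the core bound by NF-Y, a partner of SREBP, were searched on both strands from 250 bases before to 50 bases after the start of each gene in RefSeq on GRCh38.p14. They stood in 12 of 15 cholesterol gene promoters (80%), against 37% of promoters of all tested genes and 35.7% of all 27305 promoters. The motif was not particular to these genes. It stood in 16 of 20 histone promoters (80%), 45 of 62 mitotic promoters (72.6%) and 26 of 44 replication promoters (59.1%). It stood in 45 of 101 promoters of genes that rose 2-fold or more (44.6%). For genes that fell as much the count was 41 of 73 (56.2%). In the 150 bases before the start of HMGCS1 (chr5:43313413-43313562, minus strand) and MVD (chr16:88663092-88663241, minus strand), printed 5′ to 3′, capitals mark that motif on either strand.
HMGCS1: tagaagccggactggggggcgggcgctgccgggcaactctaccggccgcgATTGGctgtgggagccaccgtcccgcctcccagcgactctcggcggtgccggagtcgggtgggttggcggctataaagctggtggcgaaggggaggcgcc
MVD: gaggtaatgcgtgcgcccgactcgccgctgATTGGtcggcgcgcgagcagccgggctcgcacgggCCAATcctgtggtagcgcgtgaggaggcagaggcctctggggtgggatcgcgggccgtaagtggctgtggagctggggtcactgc
A match is a description of these letters. Here and below, a window was printed only where it held the motif, so the printed windows do not show how common it was. The nuclear receptor half-site AGGTCA stood in 2 of 25 PPAR target promoters (8%), against 9.75% for all tested genes. The motifs were chosen with the calls known.

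Glucose and hypoxia genes rose too. Of 25 hypoxia-inducible genes 14 rose and none fell (median 0.55), and of 23 genes of glycolysis 10 rose and none fell (median 0.33). After all-probe centring 2 of each rose. ANKRD37, a HIF target of little-known function, read 10.02, 10.39 and 10.53 with pioglitazone and 8.24, 8.42 and 8.39 with vehicle (1.97, adjusted p = 7.75e-08). Adrenomedullin (ADM), a vasodilator peptide, read 8.88, 8.88 and 8.84 with pioglitazone and 7.17, 7.61 and 7.63 with vehicle (1.39). EGLN1, a prolyl hydroxylase that marks HIF for destruction, rose by 1.10 and P4HA1, a collagen prolyl hydroxylase, by 1.09. VEGFA, the angiogenic growth factor, differed by 0.20 and did not pass (adjusted p = 0.39), and HIF1A differed by 0.18, also without passing. VEGFA and HIF1A were picked outside the rule for naming genes.

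PFKFB4, which sets fructose 2,6-bisphosphate, rose to 9.87, 9.71 and 9.76 with pioglitazone, against 8.07, 7.78 and 7.99 with vehicle (1.83, adjusted p = 1.1e-08). The aldolase ALDOC read 8.81, 8.99 and 9.07 with pioglitazone and 7.28, 7.07 and 7.17 with vehicle (1.79). The enolase ENO2 read 9.92, 9.89 and 9.92 with pioglitazone and 8.75, 8.52 and 8.48 with vehicle (1.32), and SLC2A3, a glucose transporter, rose by 0.92. In these genes the groups stood clearly apart. The most used enzymes of the pathway moved little: GAPDH rose by 0.35, while LDHA (0.33), PKM (0.16) and ENO1 (0.09) did not pass. These 4 genes were chosen after their values were seen. Of 67 respiratory chain and ATP synthase genes 5 rose (7.46%) and 4 fell (5.97%), both below the 10.5% and 12.8% of all genes. CYCS, cytochrome c, was the lowest at −0.60, on a probe detected on 2 of 3 pioglitazone arrays. Of 23 genes of the tricarboxylic acid cycle 6 rose and 1 fell.

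Promoters of the hypoxia genes are shown for the letters ACGTG, the core that HIF binds. It stood in 14 of 21 of these promoters (66.7%), against 27% for all tested genes and 21.6% for all promoters. Among promoters of genes that rose 2-fold or more it stood in 23 of 101 (22.8%). Among those of genes that fell as much it stood in 23 of 73 (31.5%), and among replication genes in 15 of 44 (34.1%). Capitals mark it in the 150 bases before the start of ANKRD37 (chr4:185396691-185396840, plus strand) and P4HA1 (chr10:73096867-73097016, minus strand).
ANKRD37: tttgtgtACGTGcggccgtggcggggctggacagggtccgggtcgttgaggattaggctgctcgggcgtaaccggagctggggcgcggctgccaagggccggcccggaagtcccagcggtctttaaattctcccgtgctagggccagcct
P4HA1: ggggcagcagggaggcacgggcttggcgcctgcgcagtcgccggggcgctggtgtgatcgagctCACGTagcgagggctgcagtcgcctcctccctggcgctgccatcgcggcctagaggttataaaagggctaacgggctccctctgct

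Of 27 NRF2 targets 15 rose and none fell (median 0.40), and 3 rose after all-probe centring. The aldo-keto reductase AKR1C3 read 9.20, 9.54 and 9.31 with pioglitazone and 7.71, 7.71 and 7.65 with vehicle (1.66), and AKR1B10, which reduces retinal and lipid aldehydes, read 8.93, 9.06 and 9.04 with pioglitazone and 7.31, 7.44 and 7.49 with vehicle (1.60). PGD, which makes NADPH in the pentose phosphate path, rose by 1.15. HMOX1, the haem oxygenase, rose by 0.93, with 9.80, 9.83 and 9.83 with pioglitazone and 8.56, 9.10 and 9.01 with vehicle. NQO1, a quinone reductase and a usual readout of NRF2, differed by −0.08 and did not pass (adjusted p = 0.542). The vehicle arrays spread more in HMOX1 than the pioglitazone arrays did, and the groups did not overlap. HMOX1 and NQO1 were picked outside the rule for naming genes.

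Other stress programmes did not move together. Of 33 ATF4 targets 2 rose (6.06%) and 4 fell (12.1%), with a median of −0.07, against 10.5% and 12.8% of all genes. The cystine carrier SLC7A11 gave 0.69 and the cytokine GDF15 −1.12. Of 21 endoplasmic reticulum chaperones none rose and 4 fell, by 0.35 (HSPA5) to 0.45 (DNAJB11). Of 21 heat shock genes 2 fell (9.52%) and none rose. Among 32 p53 targets 7 rose, led by PHLDA3 (1.10) and TP53INP1 (1.01), and 7 fell, led by GDF15 and the kinase PLK2 (−0.97). CDKN1A, the CDK inhibitor p21, rose by 0.32 (adjusted p = 0.044). In the BCL2 family and its partners, BLID, a BH3-like cell death inducer, rose and BAK1, a pore-forming death effector, was lower in pioglitazone cells (−1.10, at least 1.53-fold lower).

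**Figure D2:**
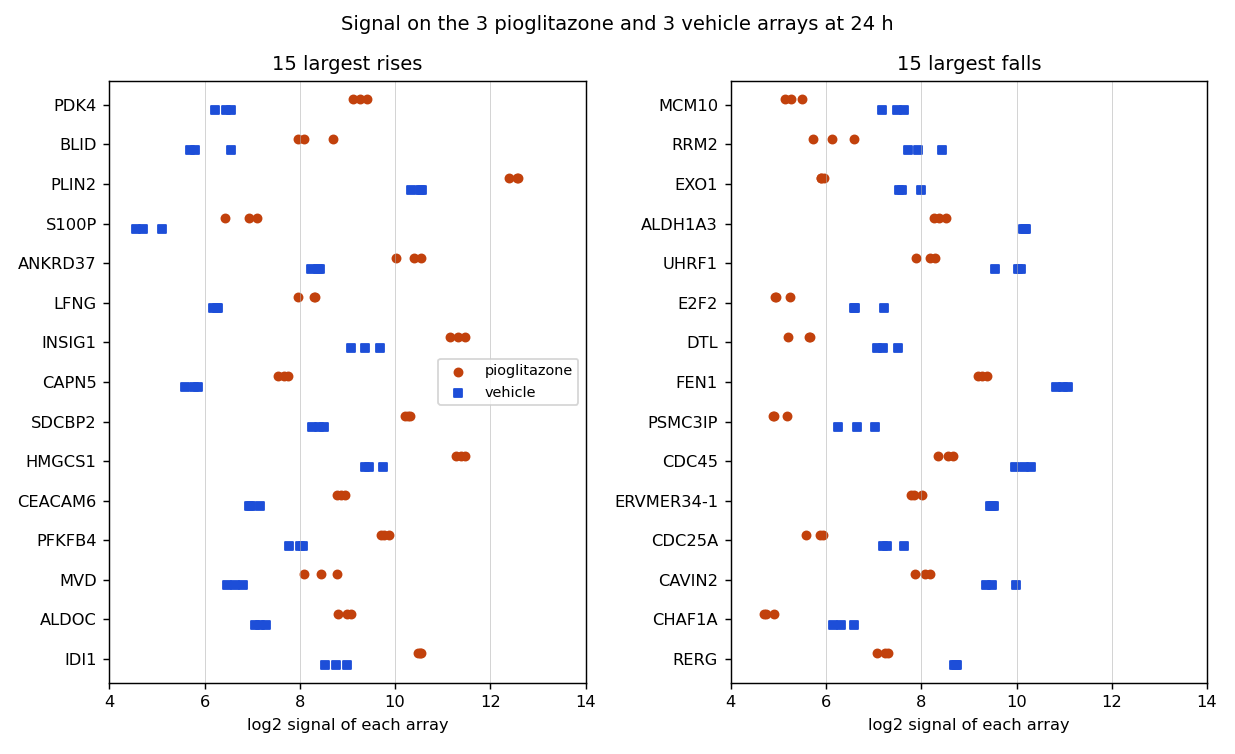
Log2 signal (horizontal axis) on each of the 3 pioglitazone and 3 vehicle arrays at 24 h for the 15 genes with the largest rise and the 15 with the largest fall. Pioglitazone and vehicle arrays did not overlap in any of the 30 genes, as the rule for naming them required.

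The largest falls were in the machinery that copies DNA. Of 50 DNA replication genes 38 fell and none rose, with a median of −0.80, or −0.44 with no background correction, and 15 fell 2-fold or more. After all-probe centring 25 fell (median −1.03). In RNA of whole cultures, fewer cells copying their DNA and less of these RNAs per cell cannot be told apart. MCM10, which starts the replication helicase, read 5.49, 5.13 and 5.26 with pioglitazone and 7.63, 7.18 and 7.48 with vehicle, 4.39-fold lower (−2.13 ± 0.16 SE, adjusted p = 1.31e-07). That probe was detected on 1 of 3 pioglitazone and on all 3 vehicle arrays, and the other MCM10 probe, detected on no pioglitazone and 3 vehicle arrays, gave −1.29. FEN1, the flap endonuclease of lagging strand synthesis, read 9.38, 9.28 and 9.20 with pioglitazone and 10.97, 10.83 and 11.08 with vehicle (−1.67). CDC45, a helicase subunit, read 8.36, 8.67 and 8.56 with pioglitazone and 10.30, 9.96 and 10.17 with vehicle (−1.61). In MCM10, FEN1 and CDC45 the highest pioglitazone array lay more than 1 log2 unit below the lowest vehicle array. DTL, which directs licensing factors to destruction, fell by 1.76 and was detected on 2 of 3 pioglitazone arrays. CHAF1A, a histone chaperone at the fork, was detected on no pioglitazone array and was at least 2.17-fold lower.

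All 6 subunits of the MCM2 to MCM7 helicase fell, by 0.77 (MCM3) to 1.22 (MCM7). MCM7 read 10.39, 10.44 and 10.27 with pioglitazone and 11.70, 11.46 and 11.59 with vehicle. PCNA, the sliding clamp of the same machinery, differed by −0.17 and did not pass (adjusted p = 0.222), and MCM8, a helicase of recombination, differed by 0.59 without passing (adjusted p = 0.105). The MCM genes and PCNA were chosen after their values were seen. The mean over the 50 genes was 7.93, 7.92 and 7.94 on the pioglitazone arrays and 8.82, 8.58 and 8.67 on the vehicle arrays.

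Genes of nucleotide supply and of the entry into S phase fell as well. Of 26 nucleotide synthesis genes 12 fell and 2 rose (median −0.33), and 2 fell after all-probe centring. RRM2, the inducible subunit of ribonucleotide reductase, read 6.60, 5.72 and 6.12 with pioglitazone and 8.45, 7.73 and 7.94 with vehicle (−1.89, adjusted p = 1.01e-05). TYMS, thymidylate synthase, fell by 0.86. DUT, which removes dUTP, rose by 0.65 on the probe used, while its other probes gave −0.66 and −0.60. Among 32 G1 to S genes 19 fell and 2 rose (median −0.40), and 5 fell after all-probe centring. E2F2 was detected on no pioglitazone array, with 4.96, 4.94 and 5.25 with pioglitazone and 7.23, 6.59 and 6.62 with vehicle, at least 2.99-fold lower. The phosphatase CDC25A fell by 1.58 on the probe used, while its other probe, detected on no pioglitazone and 1 vehicle array, gave −0.27. E2F1 (−0.10), cyclin E1 (CCNE1, 0.16) and cyclin D1 (CCND1, −0.08, adjusted p = 0.555) did not pass. E2F1 and CCNE1 were chosen after their values were seen.

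Of 32 genes of homologous recombination and the Fanconi pathway 23 fell and 1 rose (median −0.72, or −0.37 with no background correction), and 16 fell after all-probe centring. The exonuclease EXO1 read 5.89, 5.95 and 5.89 with pioglitazone and 8.0, 7.53 and 7.60 with vehicle (−1.80, adjusted p = 3.63e-07), with −1.24 on another probe, which was detected on no pioglitazone array. RAD54L, a motor of strand exchange, fell by 1.30, BLM, a helicase that dissolves crossed strands, by 1.18, and FANCI by 1.15. PSMC3IP, a recombination gene, fell by 1.65 on the probe used, which was detected on no pioglitazone array, while its other probes gave −1.15 and −0.84. XRCC2, another recombination gene, rose by 0.66. UHRF1, which brings DNMT1 to newly copied DNA, read 8.18, 7.88 and 8.29 with pioglitazone and 10.02, 9.55 and 10.09 with vehicle (−1.77), and DNMT1 itself fell by 0.76.

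Promoters of genes that fell are shown for the E2F motif, searched as TTCCCGC or TTGGCGC on both strands. It stood in 27 of 44 replication gene promoters (61.4%) and in 16 of 29 of the recombination genes (55.2%), against 14.9% for all tested genes and 9.33% for all promoters. It stood in 27 of 73 promoters of genes that fell 2-fold or more (37%) and in 14 of 101 of those that rose as much (13.9%). Capitals mark it in the 150 bases before the start of UHRF1 (chr19:4909351-4909500), DTL (chr1:212035598-212035747) and CHAF1A (chr19:4402490-4402639), all on the plus strand.
UHRF1: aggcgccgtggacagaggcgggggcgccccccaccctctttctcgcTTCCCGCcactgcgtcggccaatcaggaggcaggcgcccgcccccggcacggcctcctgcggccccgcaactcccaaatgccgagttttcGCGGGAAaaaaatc
DTL: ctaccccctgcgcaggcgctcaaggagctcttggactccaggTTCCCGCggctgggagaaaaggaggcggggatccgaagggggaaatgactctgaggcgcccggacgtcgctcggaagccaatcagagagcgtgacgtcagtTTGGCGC
CHAF1A: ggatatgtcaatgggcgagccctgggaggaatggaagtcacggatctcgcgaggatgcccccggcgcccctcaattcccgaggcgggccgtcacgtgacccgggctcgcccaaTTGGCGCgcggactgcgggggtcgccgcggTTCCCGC

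In mitosis the median difference was smaller than in replication. Of 74 genes tested, 42 fell and 1 rose, with a median of −0.50, 2 fell 2-fold or more, and 12 fell after all-probe centring. The kinesin KIF18A, which governs chromosome alignment, read 6.85, 6.87 and 6.71 with pioglitazone and 8.06, 7.92 and 7.62 with vehicle (−1.06). CDK1, the kinase that drives entry into mitosis and chosen here after its values were seen, read 8.88, 9.08 and 8.89 with pioglitazone and 9.90, 9.54 and 9.49 with vehicle (−0.70). CDC25B, a phosphatase that activates CDK1, rose by 0.53. KIF20A (0.03), CCNB2 (0.03), KIF14 (−0.05) and FOXM1 (−0.17) did not pass, of which CCNB2 and FOXM1 were chosen after their values were seen.

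Promoters of mitotic genes are shown for a motif that the replication genes lack in this window. The letters TTTGAA, the cell cycle homology region bound by the MuvB complex, stood in 39 of 62 mitotic promoters (62.9%) and in 0 of 44 replication promoters, against 9.91% for all tested genes and 15.4% for all promoters. CCAAT stood in 45 of the same 62 (72.6%). Capitals mark TTTGAA on either strand in KIF18A (chr11:28108157-28108306, minus strand), which fell, and DLGAP5 (chr14:55191586-55191735, minus strand), a spindle gene that differed by −0.33 without passing at 24 h.
KIF18A: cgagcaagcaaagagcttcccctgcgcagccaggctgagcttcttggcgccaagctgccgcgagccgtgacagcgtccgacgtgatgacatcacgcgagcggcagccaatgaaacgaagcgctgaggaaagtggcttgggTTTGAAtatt
DLGAP5: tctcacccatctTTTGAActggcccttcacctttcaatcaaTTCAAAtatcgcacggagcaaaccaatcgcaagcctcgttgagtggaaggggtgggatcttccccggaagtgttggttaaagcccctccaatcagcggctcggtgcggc

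**Figure D3:**
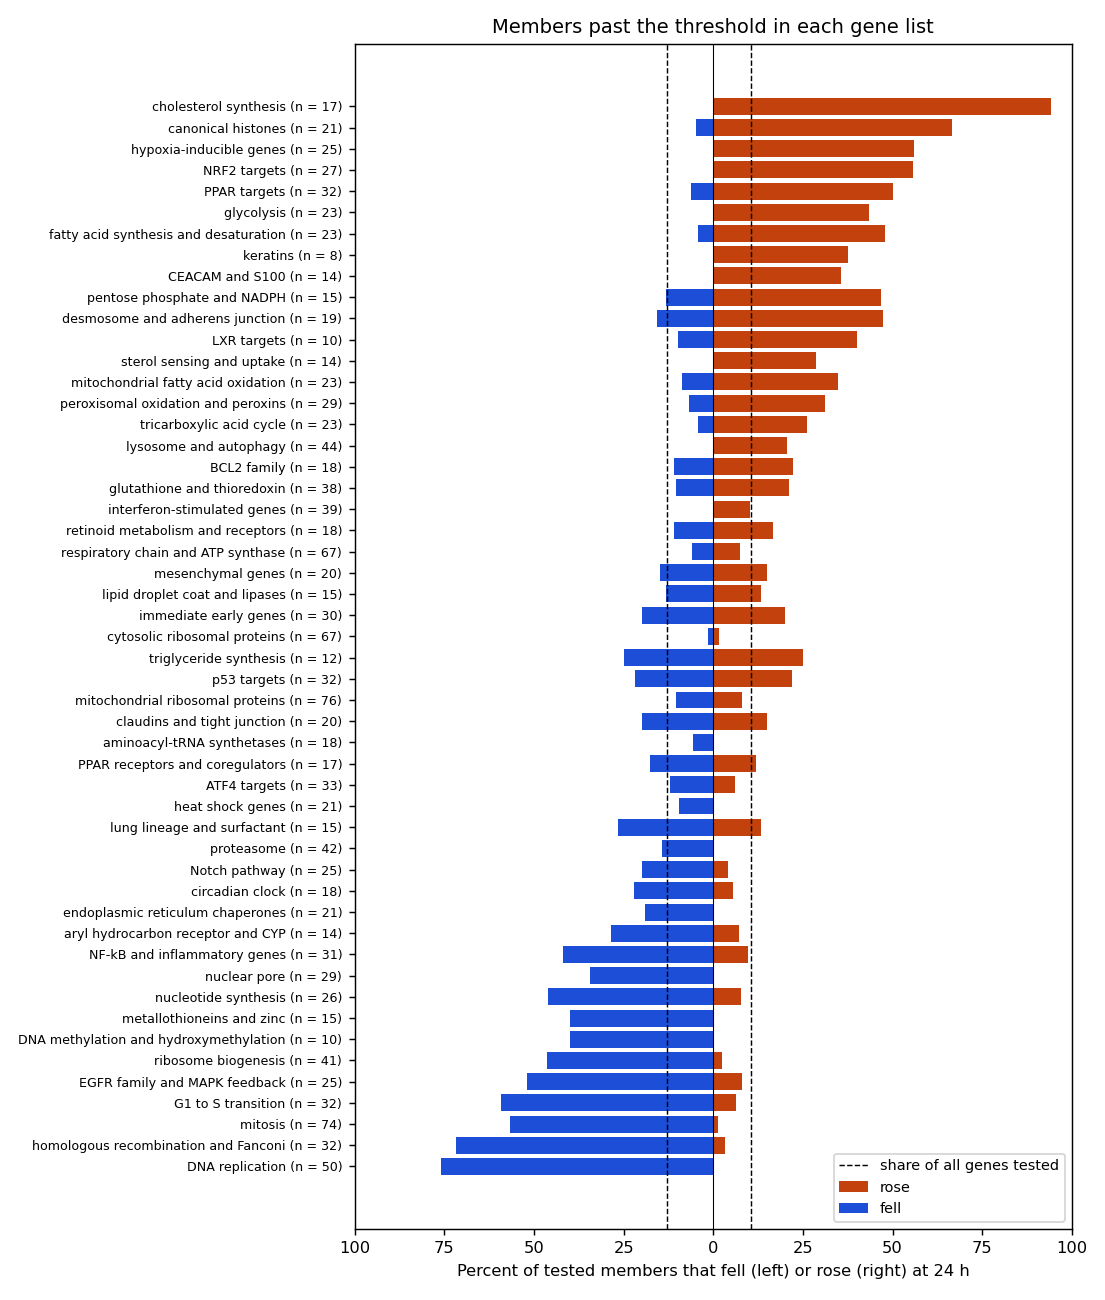
Percent of the tested members of each gene list that fell (bars to the left) or rose (bars to the right) at 24 h, with the number tested beside each name and dashed lines at the shares of all tested genes, 12.8% and 10.5%. Cholesterol synthesis has 16 of 17 genes up, and DNA replication 38 of 50 down.

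Canonical histone genes, whose main transcripts end without a poly(A) tail and are made in S phase, ran the other way from replication: 14 of 21 rose and 1 fell, with a median of 0.81, or 0.30 with no background correction. After all-probe centring 9 rose. H2AC18 read 10.28, 10.83 and 10.49 with pioglitazone and 8.70, 9.07 and 8.88 with vehicle (1.65), and another of its probes gave 0.89. H2BC21 read 8.22, 8.08 and 8.20 with pioglitazone and 6.55, 6.71 and 6.65 with vehicle (1.53). H4C3 was the only member that fell, by 0.79, with 11.89, 11.95 and 11.84 with pioglitazone and 13.14, 12.29 and 12.60 with vehicle. Members are near copies of each other, so a probe may read more than 1 of them.

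Ribosome biogenesis genes fell in 19 of 41 cases and rose in 1 (median −0.37), and 5 fell after all-probe centring. LYAR, a nucleolar factor, fell by 1.18 and RRS1 by 1.01. The 67 cytosolic ribosomal protein genes held 1 rise and 1 fall. Of 29 nuclear pore genes 10 fell, led by NUP62 (−0.85), and of 42 proteasome genes 6 fell, the second a share near the 12.8% of all genes. After all-probe centring 1 nuclear pore gene and no proteasome gene fell.

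Inflammatory genes were mostly lower where they passed. Of 31 NF-kB and inflammatory genes 13 fell and 3 rose (median −0.28, or −0.18 with no background correction), and 7 fell after all-probe centring. Interleukin 1α (IL1A) read 6.25, 6.01 and 5.88 with pioglitazone and 7.5, 7.37 and 7.42 with vehicle (−1.39). PTGS2, the inducible cyclooxygenase, read 8.30, 8.14 and 8.17 with pioglitazone and 9.44, 9.78 and 9.53 with vehicle (−1.38). The adaptor TRAF1 fell by 1.22 and the iron-binding protein LCN2 by 1.09. IL36G, an interleukin 1 family cytokine, was at least 2.08-fold higher, and IL1RN, the interleukin 1 receptor antagonist, rose by 0.74. NFKBIA (−0.12), the inhibitor and target of NF-kB, did not pass and was chosen after its value was seen. Of 39 interferon-stimulated genes 4 rose (10.3%, a share near the 10.5% of all genes) and none fell, with a median of −0.03. After all-probe centring 1 rose. IFIT3 had the largest rise at 0.98, but its other probe gave 0.18.

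Of 25 genes of the EGFR family and of MAPK feedback, 13 fell and 2 rose (median −0.40), and 2 fell after all-probe centring. The ligands epiregulin (EREG, −0.95) and HBEGF were the lowest. HBEGF read 9.87, 9.71 and 9.82 with pioglitazone, against 10.62, 10.74 and 10.82 with vehicle (−0.93). The feedback inhibitor SPRY1 fell by 0.81, and the phosphatase DUSP1 rose by 0.55. Of 30 immediate early genes 6 rose, JUN by 0.69 among them, and 6 fell, EGR1 by 0.85 among them. MYC did not pass at −0.05 and was chosen after its value was seen.

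Genes of adhesion and the cell surface moved in both directions. CEACAM6, an adhesion glycoprotein, read 8.86, 8.96 and 8.78 with pioglitazone and 7.15, 6.97 and 6.92 with vehicle (1.85). S100P, a calcium-binding protein, was detected on all 3 pioglitazone arrays at 6.44, 7.10 and 6.92 and on no vehicle array, where it read 5.11, 4.71 and 4.56, at least 3.08-fold higher. Of 14 CEACAM and S100 genes 5 rose and none fell, and 2 rose after all-probe centring. Of 19 desmosome and adherens junction genes 9 rose, led by NECTIN4 (1.26), and 3 fell, with the adherens junction protein β-catenin (CTNNB1) at −0.58, while after all-probe centring none rose and 1 fell. KRT15 rose by 1.09, MUC1 by 0.86 and CLDN4 by 0.73, while CLDN11 (−1.49) and CLDN1 (−0.91) fell. The CLDN11 probe was detected on 1 of 3 pioglitazone arrays and on all 3 vehicle arrays.

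In lung lineage genes the directions were mixed: the transcription factor CEBPA rose by 1.15 and surfactant protein D (SFTPD) by 0.62, while surfactant protein A1 (SFTPA1) fell by 0.77 and LAMP3 by 0.80. NKX2-1, the lung lineage factor, differed by 0.10 without passing and was chosen after its value was seen. ALDH1A3, which makes retinoic acid, read 8.37, 8.26 and 8.51 with pioglitazone and 10.17, 10.14 and 10.21 with vehicle (−1.79, adjusted p = 1.1e-08). LFNG, a glycosyltransferase that modifies Notch, read 7.97, 8.32 and 8.30 with pioglitazone and 6.18, 6.26 and 6.28 with vehicle (1.96, adjusted p = 1.1e-08). HEY2 (−0.67) and HES1 (−0.50), targets of Notch, fell. The HEY2 probe was detected on no pioglitazone array and on 2 vehicle arrays. Of 25 Notch pathway genes 1 rose (4%) and 5 fell (20%), with a median of 0.004, against 10.5% and 12.8% of all genes. CYP1B1, an aryl hydrocarbon receptor target, fell by 1.06. Leptin (LEP), a fat cell hormone, read 8.06, 7.49 and 7.54 with pioglitazone and 6.33, 6.96 and 6.39 with vehicle (1.14, adjusted p = 0.0159).

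The remaining genes at the ends of the ranking are described apart from the lists. CAPN5, a calpain protease, rose by 1.91 and SDCBP2, a syntenin, by 1.87. ERVMER34-1, an endogenous retroviral envelope gene, fell by 1.60, CAVIN2, a caveolar coat protein, by 1.57 and RERG, a growth-inhibiting small GTPase, by 1.52. Detection of the probe used on all 3 pioglitazone arrays and on no vehicle array held for 47 genes (0.402%), and the reverse for 68 (0.582%). By size the first set was led by S100P, the defensin DEFB103A (at least 2.46-fold higher, with a log2 difference of 1.67 on the probe used and 1.02 on another), LOC154761 (at least 1.89-fold), FABP3 and ARMH4 (at least 2.46-fold). The second was led by E2F2, PSMC3IP, CHAF1A, the nuclease ANKLE1 (−1.41, with another probe detected on 2 pioglitazone arrays) and the protease FAM111B (at least 1.49-fold lower). Folds given as a minimum set the brighter group against the lowest signal detected on each array or the gene's own signal, whichever was higher.

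**Figure D4:**
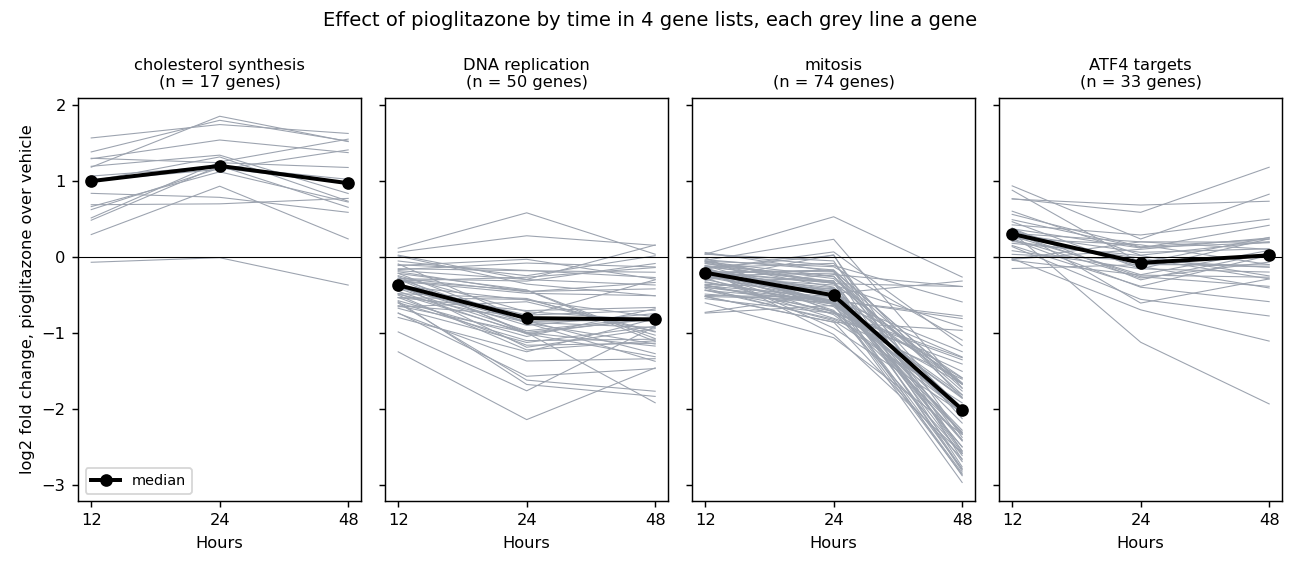
Log2 difference of pioglitazone minus vehicle (vertical axis) of each gene (grey lines) in 4 lists at 12, 24 and 48 h (horizontal axis), with the list median in black. The cholesterol synthesis median is 1.20 at 24 h, and that of mitosis is −0.20, −0.50 and −2.00 at 12, 24 and 48 h.

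The 24 h response was then set beside 12 h and 48 h. The effect of pioglitazone at 24 h differed from that at 12 h in 81 genes (0.693%), 41 higher (0.351%) and 40 lower (0.342%), and from that at 48 h in 398 (3.41%), 252 higher (2.16%) and 146 lower (1.25%). Both tests share the 24 h arrays with the main comparison. They depended on single arrays: leaving out any 1 of the 6 arrays of 24 h moved the count against 12 h by over 1.5 times, between 30 without pioglitazone replicate 3 and 199 without pioglitazone replicate 1. After all-probe centring limma called 0 genes against 12 h, with 716 at an unadjusted p under 0.05, and 11 against 48 h. At 24 h background signal was also higher, at 138 to 145 units, against 108 to 113 at 12 h and 102 to 107 at 48 h on all arrays but pioglitazone replicate 3 of 48 h (153), and its part in these differences was not tested. Genes that rose 2-fold or more at 24 h had median differences of 0.65, 1.23 and 1.02 at 12, 24 and 48 h, and those that fell as much −0.53, −1.15 and −1.04. The 24 h value chose both sets.

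Of replication genes, 18, 38 and 37 of 50 fell at 12, 24 and 48 h, with medians of −0.37, −0.80 and −0.82, and no gene passed the test of a difference between 24 h and 48 h. Over all genes, 4.32% rose and 4.48% fell at 12 h, and 14.3% rose and 15.4% fell at 48 h. In mitosis the counts stood further apart. There 7, 42 and 72 of the 74 genes fell at 12, 24 and 48 h, and 59 had a higher difference at 24 h than at 48 h by the test of that difference. DLGAP5 gave −0.33 at 24 h and −2.81 at 48 h, and KIF18A −1.06 and −2.33. Cholesterol synthesis rose early, in 14, 16 and 15 of 17 genes at the 3 times. Glycolysis genes rose in 3, 10 and 16 of 23, and ENO2 gave 0.24 at 12 h and 1.32 at 24 h. ATF4 targets rose in 10 of 33 genes at 12 h, with a median of 0.31, and in 2 at 24 h.

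Some genes peaked at 24 h among the 3 times. BLID read 8.70, 8.09 and 7.95 with pioglitazone and 5.70, 6.55 and 5.81 with vehicle at 24 h (2.23), but its difference was 0.47 at 12 h and 0.17 at 48 h, smaller by 1.76 (adjusted p = 0.0341) and 2.06 (adjusted p = 0.00403). NECTIN4 gave 0.26, 1.26 and 0.28. CSF1R gave −0.05, 0.96 and 0.08. For these 3 genes the 24 h effect differed from both other times by the test of the difference. S100P was detected on all pioglitazone arrays of 12 h and 24 h, on 1 of 48 h and on no vehicle array. FABP3 was detected on no array of 12 h and, at 24 h and 48 h, on the pioglitazone arrays alone. Other genes had a lower effect at 24 h than at 12 h: the interleukin 33 receptor IL1RL1 gave 0.98, −0.80 and −1.33 at the 3 times, and GDF15 0.33, −1.12 and −1.93.

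**Figure D5:**
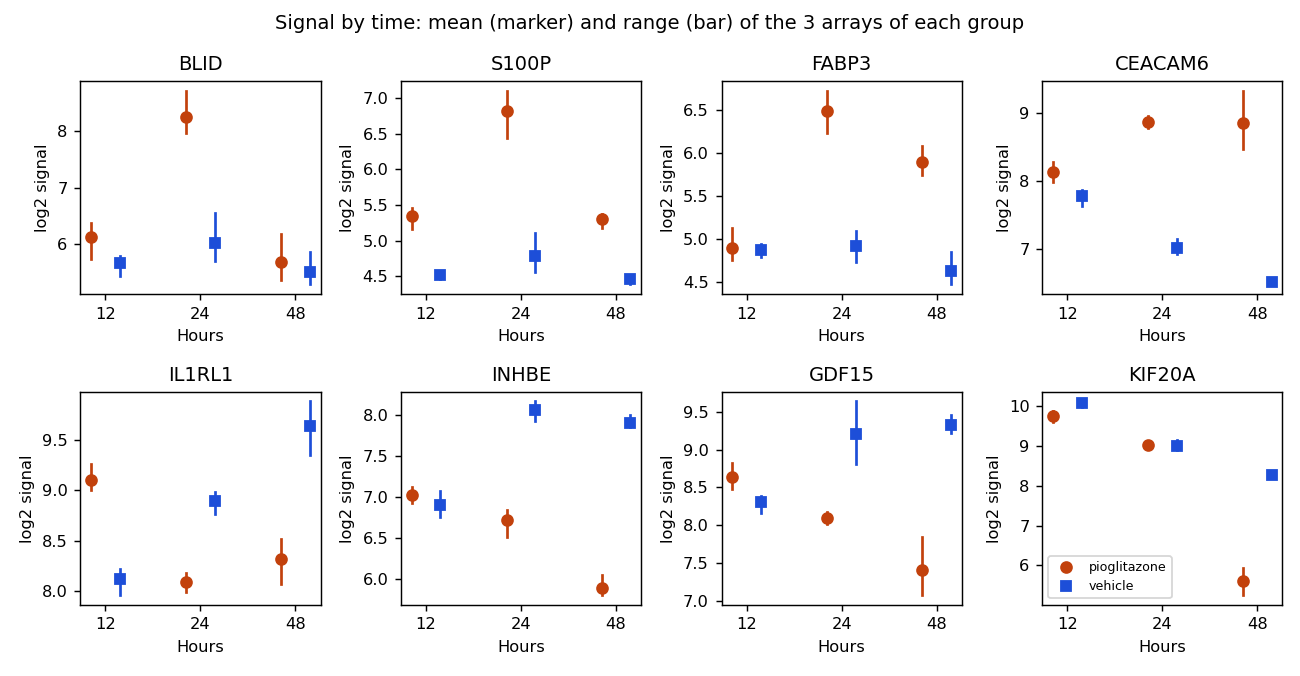
Log2 signal (vertical axis) of pioglitazone and vehicle arrays at 12, 24 and 48 h for 8 genes whose effect at 24 h differed from another time, with markers for the mean and bars for the range of 3 arrays. For BLID the groups stand furthest apart at 24 h, S100P was detected on no vehicle array, and for KIF20A they meet at 24 h (difference 0.03) and part at 48 h (−2.66).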

How the data were processed

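Total RNA was hybridised to Illumina HT-12 v4 bead arrays, 18 arrays in 6 groups of 3. The authors deposited a linear intensity and a detection p-value per probe and array, not normalised. The submitters' processing notes name GenomeStudio, in a version not given in the sources used here. Detection p-values ran in steps of 1 in 770. The authors also deposited a table of processed intensities, used only as an alternative, with 16 added and the log2 taken.

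Intensities were background-corrected with neqc of limma 3.58.1 (R 4.3.3; offset 16, negative controls inferred from the detection p-values), quantile-normalised and log2-transformed. Of 47323 probes, 20032 had a detection p under 0.01 on at least 3 of the 18 arrays. GEO's platform annotation gave 1 symbol to 30113 probes of the array, several to 8 and none to 17202, and 30074 of the named probes matched RefSeq symbols. Of kept probes 15678 had a symbol and 4354 none. The brightest probe stood for each of the 11680 genes, of which 3161 had more than 1. limma fitted 6 group means over all 18 arrays, and Benjamini-Hochberg adjusted p under 0.05 over the 11680 genes was called. The effect at 24 h was set against the effects at 12 h and 48 h in the same fit. Detection and precision are limited by the number of arrays.

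Genes were named by rule: the 15 highest and 15 lowest calls without overlap between groups, a fixed set of PPAR and cell cycle genes, up to 4 called members of each list and direction, and the leading genes detected in 1 group only or differing between times. Genes also named outside this rule include PMVK, SCD, VEGFA, HIF1A, HMOX1, NQO1 and those said to be chosen after their values were seen. Members and the 58 lists (10 to 12 genes each for the marker lists) were chosen with earlier results of these data known. The lists hold 1358 genes, 75 of them in more than 1 list. Where the probe used for a gene was detected on no array of 1 group, a fold given as a minimum is a lower bound.

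Promoters were those of RefSeq on GRCh38.p14, 250 bases before to 50 after the start, searched in Python 3.11.15 with pandas 2.3.3. Printed windows came from named genes whose 150 bases before the start held the motif, and genes on chromosome 8 were left out. On simulated data with 100 genes changed at each size, 51 of the 1.5-fold and 95 of the 2-fold changes among 11680 genes were recovered at 24 h, with 8 false calls. The simulation drew independent noise on already normalised values and changed far fewer genes than were called here. Its rates do not cover errors from background correction or scaling. Alternatives were other background corrections and scalings, the authors' processed table, other filters, array weights and the mean of probes. The 24 h arrays alone, a replicate block and leaving out each array were also tried. Figures were drawn with matplotlib 3.10.9.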

Additional observations from a re-analysis of the deposited data

Results flagged for a closer look

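The effect of pioglitazone at 24 h differed from its effect at 12 h in 81 genes and from its effect at 48 h in 398, by limma's test of the difference itself. The 5 highest and 5 lowest differences of each are given here as log2 values, the 24 h effect minus that of the other time, with no explanation weighed.

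Against 12 h, the highest were BLID (1.76), FABP3 (1.55), CEACAM6 (1.49), the defensin DEFB103A (1.4) and ERP27 (1.25), a chaperone-binding protein of the endoplasmic reticulum. FABP3 and DEFB103A were detected on no vehicle array at any of the 3 times and on no pioglitazone array of 12 h. The lowest were IL1RL1 (−1.78), INHBE (−1.47), GDF15 (−1.45), HSPA13 (−1.43) and CCN2 (−1.37). INHBE, an activin subunit, gave 0.12, −1.34 and −2.02 at 12, 24 and 48 h. HSPA13 gave 0.21, −1.22 and −0.79, and CCN2, a matricellular growth factor, 0.35, −1.02 and −0.89.

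Against 48 h, the highest were KIF20A (2.7), APOBEC3B (2.58), CDCA3 (2.57), KIF14 (2.51) and DLGAP5 (2.48). None of these 5 passed the test at 24 h. The cytidine deaminase APOBEC3B gave −0.22 at 24 h and −2.80 at 48 h, and CDCA3, a mitotic entry factor, −0.18 and −2.76. The lowest were EPB41L3 (−1.61), CPSF6 (−1.45), VGLL3 (−1.31), PLK2 (−1.24) and LRRC75B (−1.18). CPSF6 was detected only on the 3 vehicle arrays of 24 h and 1 pioglitazone array of 48 h. EPB41L3, a membrane skeleton protein, gave −0.34 at 24 h and 1.27 at 48 h, and PLK2 −0.97 and 0.27.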

How the results depend on the processing

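The count of 2725 genes at 24 h stayed within 1.5 times under 9 of the planned settings, from 2193 to 3180, the lowest with a replicate block and the highest with the 24 h arrays alone, and was 1859 to 2512 when 1 array of 24 h was left out. With array weights it was 5780, and centred on all probes, a setting added after seeing the data, 448, of which 437 were among the 2725. There 25% of calls were higher, against 45% in the main fit. The count against 12 h, 81 genes, was 201 with no background correction, 146 with offset 50, 134 with median scaling, 1968 with array weights, 13 with a replicate block and 0 centred on all probes. It ranged from 30 to 199 with 1 array left out: 30, 31 and 199 without pioglitazone replicate 3, 2 and 1, and 45, 46 and 42 without vehicle replicate 1, 2 and 3. The count against 48 h, 398 genes, was 1167 with array weights, 200 with a replicate block (80% higher, against 63.3%) and 11 centred on all probes (1372 at an unadjusted p under 0.05). It ranged from 226 to 430, with 249, 231 and 226 without vehicle replicate 1, 2 and 3 and 235 and 233 without pioglitazone replicate 2 and 3, and was 406 without pioglitazone replicate 3 of 48 h. The causes were not tested.

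Values near 0 changed sign: CCND1 (0.12 with median scaling), and, with 1 array left out, KIF20A (−0.018 to 0.11), KIF14 (−0.10 to 0.037) and LRRC75B (−0.10 to 0.28), and, centred on all probes, APOBEC3F (−0.050), KIF20A (−0.20) and LRRC75B (−0.16). DUT gave −0.20 as the mean of its probes. Of 289 named values, 256 kept their call or lack of one under the replicate block. Centred on all probes 113 did, 173 lost the call and 3 reversed. Deviations of same-numbered arrays at 24 h from their group means correlated at 0.046, −0.020 and 0.049, and those of differently numbered arrays at −0.070 to 0.038. With 3 arrays per group these values cannot decide whether a replicate number marks a shared culture or day.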

Other observations

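Genes of small non-coding RNAs, picked by symbol after their values were seen, held 15 rises and 3 falls among 116 tested (12.9% rose, against 10.5% of all genes, median 0.01). The share that rose was near that of all genes, and the genes named here are the extremes. The spliceosomal RNA RNU4-2 rose by 1.44, the U3 RNA genes SNORD3D by 1.42 and SNORD3A by 1.06. The RNase P RNA RPPH1 rose by 1.26, and the U1 type genes RNVU1-18 by 1.23 and RNU1-3 by 1.22. The 3 that fell were SNORD139 (−0.57), SNORA26 (−0.52) and SNORD96A (−0.45). The same set held 1 rise at 12 h (0.862%, against 4.32% of all genes) and 14 at 48 h (12.1%, against 14.3%). Their transcripts, like most histone transcripts, lack a poly(A) tail, and the part of this in the values was not tested.

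The longest runs of neighbouring tested genes with the same call were of histones: 6 genes rose in a row on chromosome 1 (H4C14, H2AC18, H4C15, H2AC19, H2BC21 and H2AC20) and 5 on chromosome 6 (H2BC4, H2AC6, H2BC5, H2BC6 and H2BC8).

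Of the genes that changed 2-fold or more, 79 of the 136 that rose and 51 of the 96 that fell are in no list. Chosen after their values were seen, they include TMEM140 (1.71), the MIR21 locus (1.64), the carboxypeptidase CPA4 (1.53) and the epithelial factor ELF3 (1.21) among rises, and the chromatin factor ATAD2 (−1.49), lymphotoxin β (LTB, −1.49) and the epithelial factor EHF (−1.40) among falls. The share of genes that fell was 6.54%, 13.5%, 15.3% and 16% from the dimmest to the brightest of 4 equal groups of genes by vehicle signal, and that of genes that rose 9.38%, 12.0%, 11.6% and 9.04%.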
